A study of Mus musculus with 15 samples.

Results

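The 7 genes Mfge8, Kirrel2, Smyd1, Atp8b5, Npbwr1, Exoc3l4 and Pmaip1 were taken by name from a table of 24419 genes having been selected on lower counts in mice lacking the nuclear receptors REV-ERBα and REV-ERBβ. The measured values that chose them were thus the counts of DKO (double knockout) and control libraries, and their genotype differences are given below as a description without a test. RNA came from punches of the suprachiasmatic nucleus (SCN), the hypothalamic pacemaker of daily rhythms, with 2 to 4 punches pooled per library, from C57BL/6 mice of 8 to 12 weeks. Punches were taken at circadian time (CT, hours of internal time) 4, in the subjective day, or 16, in the subjective night. The 4 groups were control at CT4 (3 libraries), DKO at CT4 (3 libraries), control at CT16 (5 libraries) and DKO at CT16 (4 libraries), 15 in all. Controls are labelled only as such, and the labels name neither the alleles nor the cell type or Cre driver of the deletion, which limits what the DKO group stands for. Nothing in the labels says that libraries came from separate mice, and p-values therefore describe only the scatter among pooled punches.

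REV-ERBα and REV-ERBβ, encoded by Nr1d1 and Nr1d2, are haem-binding nuclear receptors that recruit the NCoR and HDAC3 corepressor complex and repress transcription. They compete with the ROR activators for elements holding the half-site AGGTCA, and through these elements they shape the rhythm of Bmal1. The 7 genes encode proteins of differing function: a secreted bridging protein, a cell adhesion molecule, a neuropeptide receptor, a lipid-transporting ATPase, an exocyst-related protein, a muscle methyltransferase and an inducer of apoptosis.

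The 250 bases before the annotated start were searched for the elements by which clock proteins bind DNA. RefSeq (build GRCm38.p6) gave these bases for 5 of the 7 genes, with Npbwr1 and Pmaip1 not covered. The stretches of Mfge8, the most abundant of the genes, of Kirrel2, which had the largest genotype difference, and of Exoc3l4, which was lower at both times, are shown 5′ to 3′ on the gene's strand. Capitals mark the GC box GGGCGG on either strand, the motif bound by Sp1.
Mfge8, chr7:79149061-79149310, minus strand: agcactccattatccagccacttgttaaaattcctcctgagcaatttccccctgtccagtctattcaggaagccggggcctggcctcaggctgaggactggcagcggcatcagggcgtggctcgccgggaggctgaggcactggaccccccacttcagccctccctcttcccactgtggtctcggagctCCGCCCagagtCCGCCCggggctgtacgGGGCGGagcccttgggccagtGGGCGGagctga
Kirrel2, chr7:30457516-30457765, minus strand: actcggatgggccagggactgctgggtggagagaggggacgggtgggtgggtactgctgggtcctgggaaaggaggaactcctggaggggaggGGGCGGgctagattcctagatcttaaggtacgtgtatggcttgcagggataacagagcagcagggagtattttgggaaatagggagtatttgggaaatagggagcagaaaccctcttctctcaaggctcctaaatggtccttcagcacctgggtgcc
Exoc3l4, chr12:111417180-111417429, plus strand: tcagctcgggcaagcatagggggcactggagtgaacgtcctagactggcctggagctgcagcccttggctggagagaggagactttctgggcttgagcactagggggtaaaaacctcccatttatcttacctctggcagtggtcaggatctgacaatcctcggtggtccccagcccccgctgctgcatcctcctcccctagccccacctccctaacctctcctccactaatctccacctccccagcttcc

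The Mfge8 stretch held 4 GC boxes, beginning 61, 50, 33 and 12 bases before the start, and had a GC content of 65.2%. The Kirrel2 stretch held 1, beginning 157 bases before the start, and that of Atp8b5 held 2 that overlap, 20 and 16 bases before it. A GC box was in 32.74% of the 32851 mouse promoters of the same length. Smyd1 had the letters TATAAA on the opposite strand 28 bases before its start, and 12.37% of promoters held them on either strand. None of the 5 stretches held the half-site AGGTCA, the E-box CACGTG or the D-box letters TTATGTAA and TTACGTAA on either strand, which 14.02%, 6.021%, 0.8188% and 0.1126% of promoters held. The longer ROR element, the half-site preceded by its AT-rich flank, was in 0.1552% of promoters. It contains AGGTCA, so its absence from these 5 follows from that of the half-site. These matches describe letters in a short window and no measured binding.

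Total counts lay between 32580803 and 68757624 per library. Levels are CPM, the read count of a gene divided by its library's TMM-scaled total and scaled to a common base. A filter on low counts left 16910 genes, and those with an adjusted p (Benjamini-Hochberg, edgeR's quasi-likelihood test) below 0.05 are termed called. All 7 genes passed it, with at least 34 counts in every library. Counts summed over all exons do not check the deletion. Nr1d1 stood at 198 to 282 CPM in control and 226 to 252 in DKO at CT4, and at 135 to 150 and 241 to 378 at CT16, while Nr1d2 was higher in every DKO library than in any control library of its time. All 12 SCN markers, among them Vip and Avp, were tested. Their summed level at CT4 was 1008 to 1112 CPM in control and 852 to 894 in DKO, and 14 markers of neighbouring hypothalamus summed to 484 to 873 in control and 906 to 996 in DKO. At CT16 the SCN sum was 513 to 1073 in control and 775 to 1239 in DKO, and the neighbouring sum was 794 to 1130 and 467 to 860. Of the SCN markers at CT4, edgeR called 0, DESeq2 called 6 lower, and 9 were lower at an unadjusted p under 0.05, with a median log2 difference of -1.20 against -0.00 over all genes. The 3 libraries set aside for their markers in a fit below were control CT4 replicate 1, DKO CT16 replicate 3 and DKO CT16 replicate 4. In the last, 10 oligodendrocyte markers summed to 19851 CPM against 3878 to 9042 in the other DKO libraries of CT16. That fit kept control CT16 replicate 2, which also stood apart. Its SCN sum was 1073 CPM against 513 to 797 in the other control libraries of CT16, and its oligodendrocyte sum was 9656 against 2930 to 7669. In bulk tissue, fewer cells of a type and less RNA per cell cannot be told apart.

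Per kilobase of exon, over all libraries, Mfge8 had 46.6 CPM, above 91.1% of the tested genes. The other 6 lay lower, with Npbwr1 at 2.85, Exoc3l4 at 1.67, Pmaip1 at 1.60, Kirrel2 at 1.25, Atp8b5 at 1.09 and Smyd1 at 0.778 CPM per kilobase. Those levels fall between the percentiles 17.3 and 32.5 of tested genes.

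At CT4 the log2 differences of DKO from control ran from -1.34 to -0.11 over the 7 genes, with a median of -0.89, and at CT16 from -2.21 to -0.28 with a median of -1.09. At each time 6 of the 7 had every DKO library below every control library. The exception was Kirrel2 at CT4 and Pmaip1 at CT16. Over all tested genes, 13.3% were lower without overlap at CT4 and 2.94% at CT16, where 4.03% were higher without overlap. The genes called lower, 0.71% of those tested at CT4 and 1.83% at CT16, included 3 and 6 of the 7. All these counts follow from how the genes were chosen, and nothing is read from them. Without the 3 libraries set aside for their markers, the log2 differences at CT4 were -0.97 for Mfge8, -0.25 for Kirrel2, -0.77 for Smyd1, -1.44 for Atp8b5, -0.62 for Npbwr1, -0.85 for Exoc3l4 and -1.63 for Pmaip1. At CT16 they were -1.20, -2.68, -1.19, -1.10, -0.52, -0.92 and -0.18 in the same order, so that every value stayed below 0. Control CT4 replicate 1 had a neighbouring hypothalamus score (mean deviation of log2 CPM) of 0.61. The kept controls of CT4 had -0.69 and -0.38, and DKO at CT4 had 0.60 to 0.94. Leaving it out thus widens the marker difference at CT4, and this fit cannot show the differences apart from the markers. Leaving out only control CT16 replicate 2 gave -0.92 for Atp8b5 and -0.48 for Npbwr1 at CT16.

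**Figure D1:**
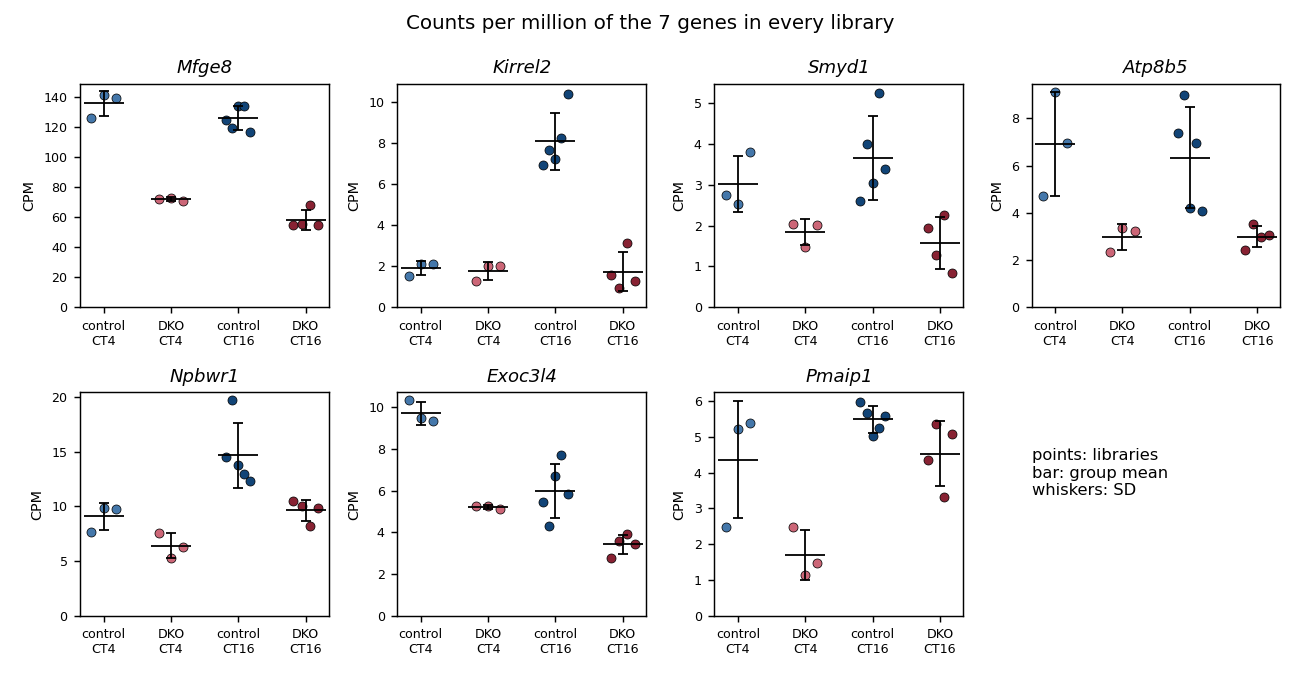
CPM of each of the 7 genes (vertical axes, linear from 0) in the 15 libraries, by genotype and circadian time, with points for libraries, bars for group means and whiskers for SD. DKO points lie below control points of the same time for every gene except Kirrel2 at CT4 and Pmaip1 at CT16, where the groups overlap.

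Mfge8 encodes lactadherin, a secreted protein that binds phosphatidylserine on dying cells and integrins on phagocytes, and in brain it is made by astrocytes and microglia. It lies on chromosome 7 at 79133768 to 79149060 (mm10, minus strand), in 10 exonic intervals. At CT4 the control libraries stood at 126, 142 and 140 CPM and the DKO libraries at 71.9, 73.0 and 70.6 CPM. At CT16 the control libraries stood at 125, 119, 134, 134 and 117 CPM, and the DKO libraries at 54.3, 55.4, 67.8 and 54.8 CPM. The lowest control library of the 15, at 117 CPM, was far above the highest DKO library, at 73.0 CPM. The log2 difference of DKO from control was -0.92 ± 0.08 (SE) at CT4, a level 1.89-fold lower, and -1.12 ± 0.07 at CT16, a level 2.17-fold lower. The 10 astrocyte markers summed to 4753 to 5064 CPM in control and 4623 to 4806 in DKO at CT4, and to 4124 to 5048 and 4187 to 5077 at CT16, and their part in the Mfge8 difference was not tested.

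Kirrel2 encodes filtrin (NEPH3), an immunoglobulin-family adhesion molecule related to nephrin that is expressed in podocytes, pancreatic islets and parts of the brain. It lies on chromosome 7 at 30447766 to 30457515 (mm10, minus strand), in 15 exonic intervals. At CT4 the 3 control libraries had 1.52, 2.10 and 2.12 CPM and the 3 DKO libraries 1.27, 2.03 and 2.03 CPM, which overlap. At CT16 the control libraries had 6.95, 7.68, 7.21, 8.23 and 10.4 CPM, and the DKO libraries had 1.57, 0.937, 3.13 and 1.28 CPM. The control libraries at CT16 thus stood apart from all other libraries, and the 3 remaining groups had overlapping ranges. On the log2 scale DKO differed from control by -0.11 ± 0.35 at CT4 and -2.21 ± 0.28 at CT16, a level 4.61-fold lower. The CT16 difference minus the CT4 difference was -2.10 ± 0.45. In the control animals Kirrel2 rose from CT4 to CT16 by 2.09 ± 0.32 on the log2 scale, 4.25-fold, with an edgeR adjusted p of 0.00224. Its control values at CT16 also enter the genotype difference, so this adjusted p is not free of the choice of genes. With group means removed, log2 CPM of Kirrel2 had an r of 0.621 with the score of 7 ependyma and tanycyte markers over the 15 libraries. With the neighbouring hypothalamus score this r was 0.581. Neighbouring markers at CT16 summed to 794 to 1130 CPM in control and 467 to 860 in DKO, and their part in the Kirrel2 differences was not tested.

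Npbwr1 encodes the G protein-coupled receptor NPBW1 for neuropeptides B and W, which couples to inhibitory G proteins. It is a single-exon gene on chromosome 1 at 5913707 to 5917398 (mm10, minus strand). At CT4 the control libraries had 7.62, 9.86 and 9.75 CPM and the DKO libraries 7.59, 5.32 and 6.25 CPM. The lowest control and the highest DKO library were 7.62 and 7.59 CPM, a very small gap. At CT16 the control libraries had 14.5, 19.7, 13.8, 13.0 and 12.3 CPM and the DKO libraries 10.5, 9.98, 8.17 and 9.85 CPM. Differences on the log2 scale were -0.50 ± 0.18 at CT4 and -0.61 ± 0.14 at CT16, at each time the smallest among the 6 genes without overlap. Both genotypes were higher at CT16.

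Atp8b5 encodes a P4-type ATPase, one of the flippases that move phospholipids to the cytoplasmic leaflet, and is best known from the testis acrosome. It lies on chromosome 4 at 43267159 to 43373831 (mm10, plus strand), in 29 exonic intervals. At CT4 control libraries ranged from 4.69 to 9.12 CPM and DKO libraries from 2.34 to 3.34 CPM. At CT16 they ranged from 4.06 to 9.0 and from 2.41 to 3.50 CPM. The control libraries were widely spread and the DKO libraries tightly grouped at both times, and no DKO library reached a control library. DKO differed from control on the log2 scale by -1.22 ± 0.30 at CT4 and -1.09 ± 0.25 at CT16.

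Exoc3l4 encodes a member of the family related to the exocyst subunit SEC6, of little described function. It lies on chromosome 12 at 111417430 to 111431680 (mm10, plus strand), in 16 exonic intervals. At CT4 the control libraries had 10.3, 9.47 and 9.31 CPM and the DKO libraries 5.28, 5.26 and 5.12 CPM. At CT16 the control libraries had 5.43, 4.29, 6.69, 7.71 and 5.84 CPM, and the DKO libraries 2.78, 3.58, 3.90 and 3.43 CPM. Each genotype was lower at CT16 than at CT4, and the DKO libraries were lower at each time. The log2 difference was -0.89 ± 0.18 at CT4 and -0.81 ± 0.15 at CT16.

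Smyd1 encodes a SET and MYND domain methyltransferase known for its work with myosin chaperones in heart and skeletal muscle. It lies on chromosome 6 at 71213940 to 71262281 (mm10, minus strand), in 10 exonic intervals. At CT4 control libraries ranged from 2.53 to 3.80 CPM and DKO libraries from 1.48 to 2.03 CPM. At CT16 they ranged from 2.61 to 5.27 CPM and from 0.839 to 2.25 CPM. Fitted log2 differences were -0.71 ± 0.32 at CT4 and -1.20 ± 0.26 at CT16. The 10 skeletal muscle markers, among them Acta1 and Ckm, summed to only 7.38 to 11.7 CPM over all 15 libraries, with 7.70 to 8.16 CPM in control and 10.2 to 11.6 CPM in DKO at CT4.

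Pmaip1 encodes NOXA, a BH3-only protein that binds MCL1 and promotes apoptosis, and a target of p53. It lies on chromosome 18 at 66458604 to 66465558 (mm10, plus strand), in 3 exonic intervals. At CT4 the control libraries had 2.49, 5.22 and 5.40 CPM and the DKO libraries 2.49, 1.15 and 1.49 CPM. Control replicate 1 and DKO replicate 1 differed only in the third decimal, and the other control libraries were at least 5.22 CPM. At CT16 the control libraries had 5.99, 5.66, 5.02, 5.25 and 5.58 CPM and the DKO libraries 4.35, 5.38, 3.32 and 5.09 CPM, which overlap. The log2 difference was -1.34 ± 0.29 at CT4 and -0.28 ± 0.23 at CT16, so that the CT16 difference lay 1.06 ± 0.37 above the CT4 difference. Control CT4 replicate 1 also had the lowest score for SCN markers of its group (-0.12 against 0.69 and 0.71, mean deviation of log2 CPM), and DKO libraries at CT4 scored -0.46 to -0.35. It had the lowest Mfge8, Kirrel2, Npbwr1, Atp8b5 and Pmaip1 of its group, but the highest Exoc3l4 and the middle Smyd1. The part of the markers in the CT4 differences was not tested.

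**Figure D2:**
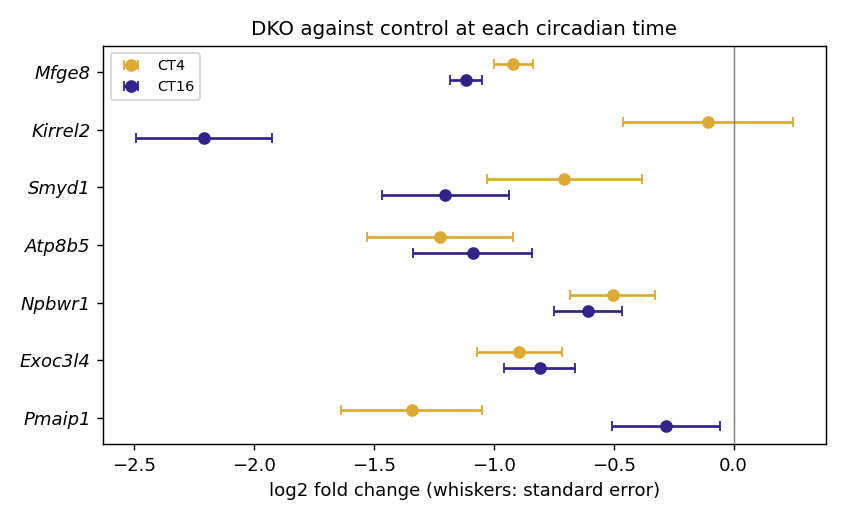
Log2 difference of DKO from control (horizontal axis, 0 meaning no difference) for the 7 genes at CT4 and CT16, with points for fitted values and bars for their standard errors. Values run from -1.34 to -0.11 at CT4 and from -2.21 to -0.28 at CT16, and Kirrel2 and Pmaip1 are the genes whose 2 points lie farthest apart.

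The 7 genes were placed by size among all called falls as a description of the choice. Of the 120 genes called lower at CT4, Pmaip1 ranked 8, Mfge8 ranked 11 and Exoc3l4 ranked 12, and Syt17, at -0.86 ± 0.15, came shortly after in size. Of the 310 called lower at CT16, Kirrel2 ranked 7, Smyd1 ranked 13, Mfge8 ranked 15, Atp8b5 ranked 17, Exoc3l4 ranked 30 and Npbwr1 ranked 51. The next there were Bgn at -0.58 ± 0.16 and Syt17 at -0.58 ± 0.13. Genes of the same size of fall were thus outside the choice at both times. So were genes with larger falls, since the best rank among the 7 was 8 at CT4 and 7 at CT16.

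The choice of genes did not directly use the change between subjective day and night, which was tested within each genotype in the same libraries. The group values behind the genotype differences also enter these changes. The choice can thus favour a change over time, and the adjusted p-values of the 7 genes are not free of it. In control animals Kirrel2 and Npbwr1 rose and Exoc3l4 fell from CT4 to CT16, without overlap between the groups, which makes 2 of 7 higher and 1 of 7 lower. Of all tested genes 2.13% were called higher and 2.08% lower, and 7.99% were higher and 7.8% lower without overlap. Kirrel2 gave the value above, and its call held in each of the 23 alternative analyses, with adjusted p between 1.02e-09 and 0.0204. Npbwr1 rose by 0.69 ± 0.16 on the log2 scale, 1.61-fold, with an edgeR adjusted p of 0.0207. Exoc3l4 changed by -0.70 ± 0.15, with an edgeR adjusted p of 0.0183. Neither of these last calls held when any single control library of CT4 was left out. Without control CT4 replicate 1, 2 or 3 in turn, Npbwr1 gave edgeR adjusted p of 0.112, 0.0580 and 0.0534, and Exoc3l4 gave 0.0828, 0.0631 and 0.0514. Without the 3 libraries set aside for their markers, Kirrel2 rose by 1.94 with an edgeR adjusted p of 0.00059, while Npbwr1 (0.58, 0.0743) and Exoc3l4 (-0.65, 0.0560) were not called. In that fit the kept control libraries of CT4 scored 0.69 and 0.71 for SCN markers, against -0.47 to 0.27 in control at CT16. Mfge8 (-0.11 ± 0.07), Smyd1 (0.29 ± 0.28), Atp8b5 (-0.13 ± 0.26) and Pmaip1 (0.33 ± 0.25) were not called in the main fit. Cell type markers moved in the same comparison, with 3 of 12 SCN markers called lower (median -0.56), 3 of 8 microglial markers (median -0.41) and 2 of 9 endothelial and pericyte markers (median -0.34). Their part in these changes was not tested.

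In DKO animals Pmaip1 rose from CT4 to CT16 by 1.40 ± 0.28 on the log2 scale, 2.63-fold, with an edgeR adjusted p of 0.0164. Mfge8 changed by -0.31 ± 0.08, with an edgeR adjusted p of 0.0492. Of all tested genes 1.29% were called higher and 0.509% lower, and 8.32% were higher and 6.38% lower without overlap. With the replicate number as a block over all 15 libraries, neither Pmaip1 nor Mfge8 was called. Pmaip1 stood at 1.36 with an edgeR adjusted p of 0.0899 and Mfge8 at -0.31 with 0.0701. With the block in the DKO groups alone, Pmaip1 was called and Mfge8 was not (-0.29, edgeR adjusted p 0.0967). In those groups without a block, Pmaip1 was not called (1.39, edgeR adjusted p 0.0913). Pmaip1 was also not called without DKO CT4 replicate 2 (1.18, edgeR adjusted p 0.111), DKO CT4 replicate 3 (1.30, 0.106) or DKO CT16 replicate 2 (1.30, 0.0557). The Mfge8 call was lost in 14 of 23 alternatives, with edgeR or DESeq2 adjusted p between 0.00162 and 0.177. Without the 3 libraries set aside for their markers, Pmaip1 (1.499, edgeR adjusted p 0.00174), Mfge8 (-0.39, 0.00252) and Npbwr1 (0.68, 0.0361) were called. The kept DKO libraries of CT16 had SCN scores of 0.03 and 0.37, against -0.46 to -0.35 in DKO at CT4. Their neighbouring hypothalamus scores were -0.77 and -1.15, against 0.60 to 0.94. DKO CT16 replicate 3, left out, had -0.47 and 0.86, so this fit widens the marker difference and cannot separate its calls from the markers. In the main fit Npbwr1 (0.59 ± 0.17, edgeR adjusted p 0.0794) and Exoc3l4 (-0.61 ± 0.17, 0.0719) were not called, although no library of one time reached those of the other. Kirrel2 stayed at -0.01 ± 0.33, with a 95% interval of -0.73 to 0.71, and Smyd1 (-0.21 ± 0.31) and Atp8b5 (0.01 ± 0.29) were not called either. In this comparison the SCN markers had a median log2 difference of 0.90, with 0 of 12 called by edgeR, 5 higher at an unadjusted p under 0.05 and 2 called higher by DESeq2. Markers of neighbouring hypothalamus had a median of -0.69, and 2 of 8 microglial markers and 1 of 9 endothelial and pericyte markers were called lower. With group means removed, log2 CPM of Pmaip1 and the SCN marker score had an r of 0.697 over the 15 libraries. For Npbwr1 this r was 0.707 and for Atp8b5 0.642, while the remaining genes ran from -0.470 (Kirrel2) to -0.284 (Mfge8). The part of the markers in the Pmaip1 and Mfge8 changes was not tested. These tests share libraries with the genotype contrasts. The low Pmaip1 values of DKO at CT4 enter both its genotype difference and its change over time, so its adjusted p is not free of the choice. The difference between the changes of the 2 genotypes is made of the contrasts on which the genes were selected, so it is given above for Kirrel2 and Pmaip1 as a description only. Over all tested genes 0.0118% were called higher and 0% lower in it.

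**Figure D3:**
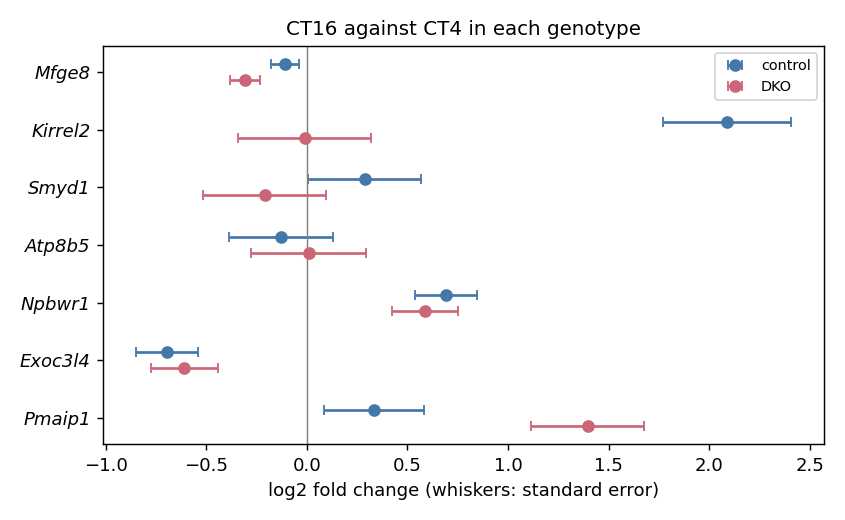
Log2 difference of CT16 from CT4 (horizontal axis, 0 meaning no difference) for the 7 genes in control and DKO animals, with bars for standard errors. In control animals Kirrel2 lies at 2.09 and Npbwr1 at 0.69, and in DKO animals Pmaip1 lies at 1.40 and Kirrel2 at -0.01.

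Partners of the 7 genes were read from 7 lists with 104 genes, of which 99 were tested. At CT4 Cdkn1a alone was called, 1 of 99, against 0.574% of tested genes called higher and 0.71% lower. DESeq2 called 2 higher and 6 lower. At CT16 edgeR called 8 higher and 3 lower, against 2.83% and 1.83% of all tested genes. The median log2 difference over the 99 genes was 0.00 at CT4 and 0.01 at CT16.

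Among 28 tested genes of phosphatidylserine recognition and engulfment, the pathway of Mfge8, 4 rose and 1 fell at CT16, and the list's median was 0.13 against 0.00 over all genes. Itgb5, the β5 chain of an integrin that binds lactadherin, rose by 0.64 ± 0.10 on the log2 scale, from 47.3 ± 3.25 CPM (SD, n = 5) to 73.5 ± 13.2 CPM (SD, n = 4), with an edgeR adjusted p of 0.00129. Mertk, the receptor tyrosine kinase that recognises Gas6 and protein S on dying cells, changed by -0.41 ± 0.08, from 35.2 ± 3.52 CPM (SD, n = 5) to 26.4 ± 3.03 CPM (SD, n = 4), with an edgeR adjusted p of 0.00738. Megf10, an engulfment receptor of astrocytes (0.62 ± 0.16), Pros1, which encodes protein S (0.49 ± 0.13), and the phosphatidylserine-binding Anxa5 (0.42 ± 0.09) were the other risers, and for each of these last 3 genes the DKO and control libraries overlapped. Of 10 astrocyte markers, 2 were called higher and 1 lower in the same comparison (median 0.27), and 10 oligodendrocyte markers had a median of 0.72, and their part in the list's values was not tested. The calls of Megf10 and Pros1 were each lost in 17 of 23 alternatives and that of Anxa5 in 5, among them without DKO CT16 replicate 2 and without DKO CT16 replicate 4, while that of Itgb5 held in all 23. The Mertk call was lost in 1 of 23, with the replicate block in the compared groups alone (-0.43, edgeR adjusted p 0.113). Mertk also rose from CT4 to CT16, by 1.02 ± 0.09 in control and 0.59 ± 0.10 in DKO, the latter not called in a fit of the compared groups alone (edgeR adjusted p 0.0504), and Elmo1, an adaptor for engulfment signalling, rose by 0.30 ± 0.07 in control, a call lost in 7 of 23 alternatives. At CT4 edgeR called 0 of the 28, with 5 lower and 1 higher at an unadjusted p under 0.05, and DESeq2 called 3 lower.

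Kirrel2 lies head to head with Nphs1, which encodes nephrin, and 2542 bases separate their annotated starts on mm10. Nphs1 was barely detected, with 5 to 80 counts per library. At CT16 the control libraries had 1.21, 0.385, 0.406, 1.63 and 1.10 CPM and the DKO libraries 0.201, 0.0937, 0.289 and 0.296 CPM. Every DKO library lay below every control library, and the log2 difference was -2.09 ± 0.49, with an edgeR adjusted p of 0.0208. The call was lost in 5 of 23 alternatives, including without DKO CT16 replicate 2 (-1.84, edgeR adjusted p 0.0813) and without control CT16 replicate 4 (-1.79, 0.0642). At CT4 control libraries ranged from 0.329 to 0.667 CPM and DKO libraries from 0.178 to 0.417 CPM, which overlap. Kirrel (-0.17 ± 0.10) and Kirrel3 (-0.07 ± 0.09), which encode the other NEPH proteins, were not called at CT16. At CT4 Kirrel differed by -0.44 ± 0.12 and Kirrel3 by -0.05 ± 0.11, and edgeR called neither. Of the 12 tested genes in the nephrin list, the kinase gene Fyn was the other called one at CT16, at 0.17 ± 0.05. Its call was lost in 16 of 23 alternatives. At CT4 edgeR called 0 of the 12 and DESeq2 called 1 lower.

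**Figure D4:**
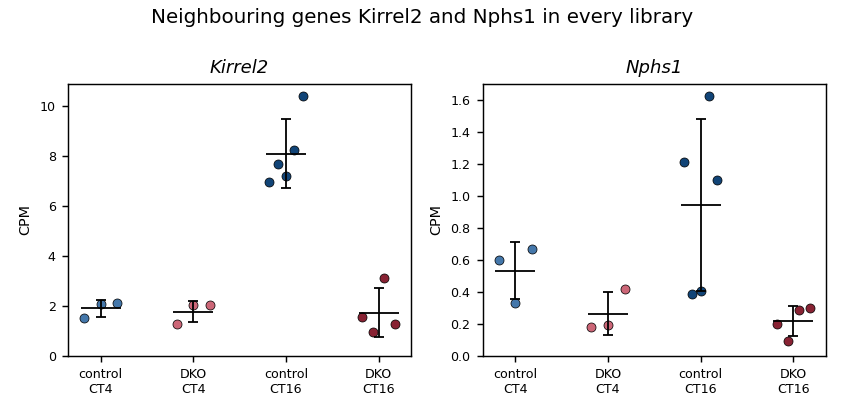
CPM of Kirrel2 and of its head-to-head neighbour Nphs1 (vertical axes, linear from 0) in each library by genotype and time, with points for libraries, bars for group means and whiskers for SD. Kirrel2 is at 6.95 CPM or more in the control libraries at CT16 and at 3.13 CPM or less elsewhere, and Nphs1 in DKO libraries at CT16 is at 0.296 CPM or less.

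Of the 16 tested genes around NOXA, covering the BCL2 family and p53 targets, 2 rose in DKO at CT16, while Pmaip1 was lower at CT4. Cdkn1a, the p53 target that encodes the cell cycle inhibitor p21, rose at CT4 from 7.54 ± 0.387 CPM (SD, n = 3) to 19.9 ± 0.850 CPM (SD, n = 3). At CT16 it rose from 24.8 ± 4.29 CPM (SD, n = 5) to 78.1 ± 12.4 CPM (SD, n = 4). The log2 differences were 1.40 ± 0.16 and 1.65 ± 0.12. Bbc3, which encodes the BH3-only protein PUMA, rose by 0.56 ± 0.15 at CT16, a call lost in 12 of 23 alternatives. Cdkn1a also rose from CT4 to CT16 in control (1.72 ± 0.15) and in DKO (1.97 ± 0.15), and Bcl2l1, which encodes the survival protein BCL-XL, rose by 0.37 ± 0.10 in control, a call lost in 12 of 23 alternatives. The 4 calls of Cdkn1a held in all 23.

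Of the 13 tested genes of the exocyst and its relatives, Tnfaip2, a SEC6 relative like Exoc3l4, rose in DKO at CT16 by 0.95 ± 0.21, from 2.38 ± 0.623 CPM (SD, n = 5) to 4.60 ± 0.380 CPM (SD, n = 4), a call lost in 2 of 23 alternatives. Of the 9 tested SMYD genes and chaperones, Hsp90ab1, a cytosolic HSP90, changed by -0.18 ± 0.04 at CT16. Its level went from 1896 ± 61.5 CPM (SD, n = 5) to 1668 ± 53.1 CPM (SD, n = 4), and the call was lost in 5 of 23 alternatives, among them without DKO CT16 replicate 2. Of 16 flippase genes edgeR called 0 in any of the 4 comparisons. DESeq2 called 1 lower at CT4, 1 lower in control over time and 0 in the other 2 comparisons. At an unadjusted p under 0.05, 1 was lower at CT4, 1 lower and 2 higher at CT16, 3 lower in control over time and 1 higher in DKO over time. The most abundant per length were Atp9a (-0.14 ± 0.05 at CT16) and the flippase subunit gene Tmem30a (-0.07 ± 0.05). Of 5 tested genes of neuropeptide B and W signalling edgeR and DESeq2 each called 0 at CT16, with 1 higher at an unadjusted p under 0.05. The most abundant there were the G protein genes Gnai2 (-0.06 ± 0.05) and Gnao1 (-0.02 ± 0.07). Of the ligands, Npb averaged 0.570 CPM, and Npw had no count in any library.

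**Figure D5:**
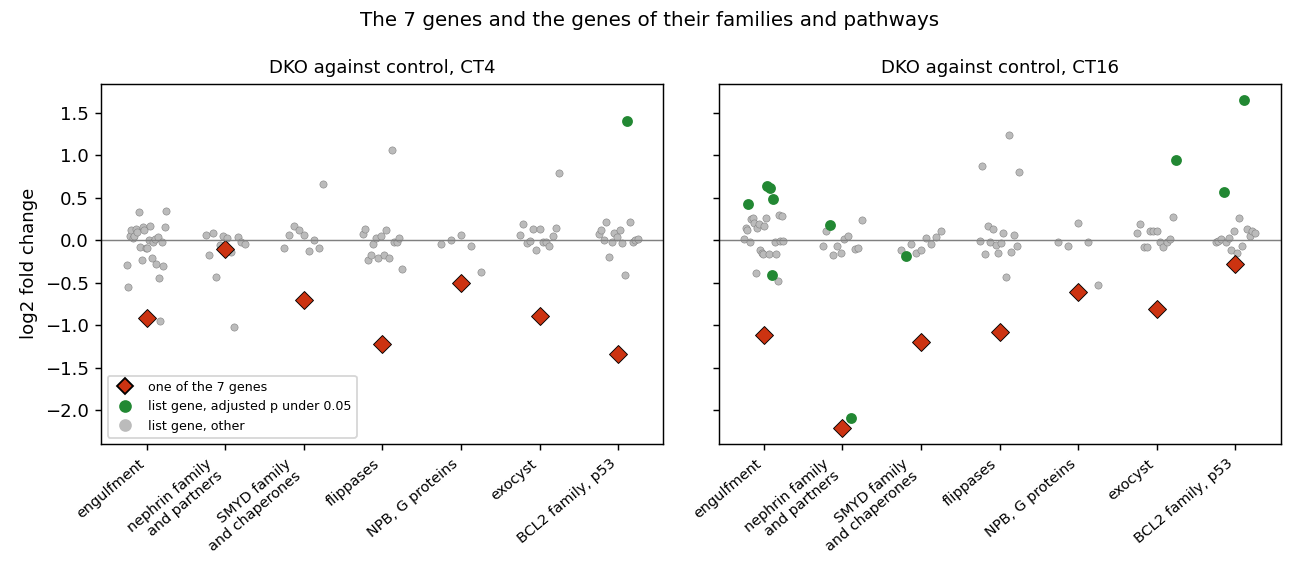
Log2 difference of DKO from control (vertical axis) at CT4 and at CT16 for the tested genes of the 7 partner lists (horizontal axis), with called list genes in green, other list genes in grey and the 7 genes as red diamonds. Called list genes at CT16 range from -2.09 for Nphs1 to 1.65 for Cdkn1a, and at CT4 Cdkn1a at 1.40 is the green point.

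Likeness of pattern was measured as Pearson's r of log2 CPM over the 15 libraries, among 13548 genes, and describes levels that share genotype, time and library. The genes most like Mfge8 were Thra (0.955), the thyroid hormone receptor gene that overlaps the end of Nr1d1, Fam213a (0.943) and AI464131 (0.937). Those most like Kirrel2 were Cdipt (0.929), Nat14 (0.912) and Gm13889 (0.907), and those most like Smyd1 were Bcr (0.909), Pomgnt2 (0.907) and Aldh1l1 (0.900). Atp8b5 was nearest to Sfrp2 (0.877), Avpr1a (0.875) and Cda (0.870). Npbwr1 was nearest to Xbp1 (0.955), Hexim1 (0.924) and Cep120 (0.923). Exoc3l4 was nearest to Hes5 (0.904), Ncan (0.892) and Sema6c (0.887), and Pmaip1 to Hnrnpm (0.957), Tm6sf2 (0.934) and Tra2a (0.914). With group means removed, these r ranged from 0.00633, for Exoc3l4 with Sema6c, to 0.856, for Npbwr1 with Cep120. Among pairs of the 7 genes, Npbwr1 and Pmaip1 had the highest r, 0.856 over all libraries and 0.695 with group means removed. Npbwr1 and Exoc3l4 had the lowest, -0.04 and -0.68.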

How the data were processed

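RNA-seq libraries of SCN punches were compared by genotype and time. The authors deposited whole-number read counts per gene and library, not normalized, with each gene's exonic length, per the file headers. Alignment and counting tools named in the submitters' processing notes are featureCounts and STAR, beside DESeq2 and the build mm10. The strand setting is not given in the sources used here, so antisense reads may not be separated. Exons of the 7 genes overlap no other annotated gene's.

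Counts were fitted in R 4.3.3 with edgeR 4.0.16 (filterByExpr, TMM, robust quasi-likelihood fit of 4 group means over 15 libraries, 11 residual degrees of freedom). The SE of a log2 fold change is its size over the root of F. Likeness used a prior count of 2 and genes whose mean log2 CPM reached 1. Scripts were tested on simulated data. Alternatives were RLE factors, DESeq2 1.42.0, no filter, a stricter filter (CPM of 1 in 3 libraries), a replicate block, fits of the compared groups alone, and leaving out libraries. The block within compared groups alone was added after seeing the data.

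No 2 libraries of a group were alike within sampling noise (chi-square per degree of freedom at least 6.57). Same-numbered DKO libraries of CT4 and CT16 deviated together (r 0.108 to 0.224 in 3 pairs), so the block stands beside that comparison. In the others r was -0.404 to 0.206, and numbers were not taken to pair libraries.

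The 7 genes and the partner and marker lists were chosen with earlier results of these data known. Named are the 7 genes, the 3 most alike of each, called list members or the 2 most abundant per length, and the 2 falls next in size, of which 1 is not reported here. The NEPH genes Kirrel and Kirrel3 and the ligand genes Npb and Npw were named after their values were seen.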

Additional observations from a re-analysis of the deposited data

Results flagged for a closer look

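Within DKO libraries at CT16, Mfge8 stood at 67.8 CPM in replicate 3 against 54.3 to 55.4 CPM in the other libraries, a gap of 0.922 of the group's range. It was the 1 such value among 14 gene and group combinations of 4 or 5 libraries, and chance gives about 1 in 20. Markers of neighbouring hypothalamus gave a score of 0.859 in replicate 3, while its 3 companions lay between -1.15 and -0.767, and the part of this in the Mfge8 value was not tested.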

How the results depend on the processing

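Of 336 genotype values of the 7 genes, 335 were below 0, the exception being Kirrel2 at CT4 without DKO CT4 replicate 1 (0.09). Of 791 recomputed values over 5 comparisons, 718 kept their side of the threshold, 54 lost a call and 19 gained one. Direction was compared only where either fit called the gene, and there 0 reversed. Some uncalled values changed sign, such as Atp8b5 in control over time, at -0.13 in the main fit and up to 0.13 in the alternatives. Low counts limit Kirrel2, Smyd1, Pmaip1 and Nphs1.

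All genes called at CT4 numbered 217, with 570 by DESeq2, 828 in the compared groups alone, 606 without control CT4 replicate 1 and DKO CT16 replicates 3 and 4, and 16 to 328 on leaving out 1 library. At CT16 they were 788, with 1258, 368, 419 and 380 to 1318 in the same order. From CT4 to CT16 in control they were 712, with 1282 by DESeq2 and 235 to 1057 on leaving out 1 library. In DKO they were 304, with 822, 47, 1184 and 103 to 1461 in the order first given. For the difference of genotype differences they were 2, with 317 by DESeq2, 6 without a filter, 423 without the 3 libraries and 1 to 298 on leaving out 1 library. The causes were not tested.

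Calls of the 7 genes between genotypes, and in the difference of differences made of them, follow the choice of the genes and show only how far the count moves with the setting. Of the 7 genes, 3 were called at CT4, and 1 to 4 on leaving out 1 library, with 1 without DKO CT4 replicate 2 or 3 or control CT4 replicate 2 or 3. At CT16 6 were called, and 4 to 6 on leaving out 1 library. In control over time 3 were called, 1 without the 3 libraries and 1 to 3 on leaving out 1 library. In DKO over time 2 were called, 4 by DESeq2, 0 in the compared groups alone and 0 to 4 on leaving out 1 library. For the difference of differences edgeR called 0 (2 at an unadjusted p under 0.05), DESeq2 1, the fit without the 3 libraries 2, and leaving out 1 library 0 to 1.

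With the replicate block, all genes called were 104 at CT4, 503 at CT16, 379 in control over time, 159 in DKO over time and 1 for the difference of differences, and of the 7 genes 0 in DKO over time. With the block in the compared groups alone they were 473 at CT4, 139 at CT16, 246 in control over time and 315 in DKO over time. Of the 7 genes, that fit called 2 at CT16 and 1 in DKO over time.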
